A study of Mus musculus with 4 samples.

Results

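The replication-dependent histone genes were compared between leukemic and normal mouse erythroid cells. Their members were the probe sets of the array whose entry in its gene table held at least 1 symbol of a clustered H2A, H2B, H3 or H4 gene or of a linker histone (H1f and a number), and there were 56 of them among 35557 probe sets. Each of 30 members carried 1 symbol and was taken as that gene's own probe set. Whether such a probe set also reads near copies of its gene was not tested. The other 26 carried several symbols, mostly those of nearly identical genes of 1 histone type. The signal of such a probe set cannot be assigned to any 1 of its genes. By type the members were 8 of H1, 4 of H2A, 16 of H2B, 13 of H3, 12 of H4 and 3 whose symbols crossed types. The symbols named 66 genes, of which 53 lie on chromosome 13 and 10 on chromosome 3, the clusters of the older Hist1 and Hist2 names. The remaining 3 genes, H1f7, H1f8 and H1f10, lie outside the clusters and are not replication-dependent, so the label of the family does not hold for them. Whether it holds for every gene inside the clusters was not tested.

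MEL cells are a murine erythroleukemia line (clone DS19), grown in serum with puromycin, which stably expresses a fusion of Gata-1 and the estrogen receptor (ER). The normal counterpart, ES-EP, consists of untransformed erythroid progenitors obtained from embryonic stem cells, which grew in StemPro34 to which stem cell factor (SCF), erythropoietin, dexamethasone and IGF-1 had been added. Both were proliferating, and each group held 2 arrays, A and B, of total RNA from duplicate cultures. Cell type and medium changed together and cannot be told apart. Each p-value rests on how far duplicate cultures of a group spread, which limma moderated toward a spread typical of all probe sets. Each difference is given as MEL minus ES-EP in log2 units, and a probe set was called where limma's adjusted p, over all 35557 probe sets, was below 0.05. An exact permutation of 2 against 2 arrays cannot give a p under 0.333. Fewer cells in S phase and less histone RNA per cell cannot be told apart in such samples.

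Histone genes of this family are transcribed in S phase, when new DNA has to be packed, and their genes sit in clusters of many near copies. The core histones H2A, H2B, H3 and H4 form the nucleosome, and H1 binds the linker DNA between nucleosomes. Their mRNAs end in a stem-loop in place of a poly(A) tail, and SLBP, which binds the stem-loop, governs their processing, translation and decay. Whether the labeling reaction started from poly(A) tails was not given in the sources used here.

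To show what lies upstream of genes of each type, the 150 bases before the transcription start are printed for the gene with its own probe set and the largest called difference in each direction that had an entry in the RefSeq promoter table (GRCm38.p6). Capitals mark the TATA box (TATAAA), the CCAAT box (CCAAT), the octamer (ATTTGCAT) of H2A and H2B promoters and the H1 box (AAACACA), each on either strand.
H1f6, higher in MEL, chr13:23695661-23695810, plus strand: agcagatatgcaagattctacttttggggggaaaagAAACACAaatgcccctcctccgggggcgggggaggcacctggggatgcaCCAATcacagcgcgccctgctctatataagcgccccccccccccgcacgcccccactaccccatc
H1f2, lower in MEL, chr13:23738657-23738806, plus strand: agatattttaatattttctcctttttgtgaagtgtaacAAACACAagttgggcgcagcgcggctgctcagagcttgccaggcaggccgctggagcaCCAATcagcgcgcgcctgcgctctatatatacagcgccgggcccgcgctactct
H2ac15, higher in MEL, chr13:21753913-21754062, minus strand: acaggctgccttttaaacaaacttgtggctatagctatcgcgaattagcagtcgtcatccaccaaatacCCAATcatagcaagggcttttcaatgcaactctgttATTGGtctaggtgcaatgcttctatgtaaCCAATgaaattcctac
H2ac4, lower in MEL, chr13:23750938-23751087, plus strand: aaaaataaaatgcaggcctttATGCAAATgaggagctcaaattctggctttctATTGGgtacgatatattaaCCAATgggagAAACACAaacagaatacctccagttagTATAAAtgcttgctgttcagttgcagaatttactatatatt
H2bc18, higher in MEL, chr3:96269550-96269699, plus strand: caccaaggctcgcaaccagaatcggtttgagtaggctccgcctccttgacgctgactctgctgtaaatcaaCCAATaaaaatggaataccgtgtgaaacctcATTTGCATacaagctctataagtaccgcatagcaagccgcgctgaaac
H2bc3, lower in MEL, chr13:23746584-23746733, plus strand: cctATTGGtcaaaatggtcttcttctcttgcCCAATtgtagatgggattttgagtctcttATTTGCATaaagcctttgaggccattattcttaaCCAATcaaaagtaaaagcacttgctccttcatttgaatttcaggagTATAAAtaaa
H3c15, higher in MEL, chr3:96239128-96239277, minus strand: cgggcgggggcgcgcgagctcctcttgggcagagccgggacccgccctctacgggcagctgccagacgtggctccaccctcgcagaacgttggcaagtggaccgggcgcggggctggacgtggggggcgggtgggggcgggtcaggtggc
H3c4, lower in MEL, chr13:23575613-23575762, plus strand: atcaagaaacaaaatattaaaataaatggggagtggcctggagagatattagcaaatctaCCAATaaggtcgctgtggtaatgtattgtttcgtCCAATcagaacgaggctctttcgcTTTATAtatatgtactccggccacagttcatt
H4c8, higher in MEL, chr13:23530894-23531043, plus strand: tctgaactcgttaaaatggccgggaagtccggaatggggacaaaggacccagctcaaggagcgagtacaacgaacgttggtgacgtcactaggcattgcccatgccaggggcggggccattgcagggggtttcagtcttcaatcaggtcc
H4c3, lower in MEL, chr13:23698459-23698608, minus strand: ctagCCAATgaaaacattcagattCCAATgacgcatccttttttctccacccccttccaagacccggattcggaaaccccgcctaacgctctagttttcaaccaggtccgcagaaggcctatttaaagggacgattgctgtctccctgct

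Among the printed promoters, the octamer stood in those of H2ac4, H2bc18 and H2bc3, and the H1 box in those of H1f6, H1f2 and H2ac4. The printed stretches of H3c15 and H4c8, both higher in MEL, held none of these letters. Over the window of 300 bases in the table, CCAAT was present in 83.6% of the 61 histone promoters with an entry and in 37.4% of all 32851 promoters. It was found in 17 of 17 H2A, 14 of 14 H2B and 10 of 10 H3 promoters but in 3 of 11 H4 promoters. TATAAA was present in 55.7% of histone promoters against 13.6% of all promoters. The octamer was present in 19.7% against 1.74%, and only in H2A (6 of 17) and H2B (6 of 14) among the types. The H1 box was present in 14.8% against 7.18%, and in 5 of 9 H1 promoters. Of the promoters of genes with their own probe set, TATAAA was found in 2 of 6 genes called higher, 9 of 14 called lower and 4 of 6 not called. CCAAT was found in 5 of 6, 12 of 14 and 4 of 6 of these, the octamer in 1 of 6, 4 of 14 and 3 of 6, and the H1 box in 2 of 6, 4 of 14 and 2 of 6. A match of letters is a description of the window and not a site of binding.

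Across all members the difference between MEL and ES-EP was small, while a few genes differed by up to 3.06-fold. The median difference of the 56 members was -0.20, beside -0.15 over all probe sets, and the members ranged from -0.83 to 1.61. The members' median was 11.33 and 11.32 on the MEL arrays and 11.60 and 11.55 on the ES-EP arrays. In MEL, 9 members (16.1%) were called higher, where 14.4% of all probe sets were, and 21 members (37.5%) were called lower, where 30.7% of all were. At least 2-fold higher were 5 members (8.93%), against 4.26% of all probe sets, and at least 2-fold lower were 0 members, against 4.55%. All 5 of these, H1f6, H2ac15, H2bc18, H2bc4 and H3c15, had a probe set of their own, and H1f6 was at the level of unexpressed genes in ES-EP. The MEL and ES-EP arrays did not overlap in 47 members, and in 75.9% of all probe sets.

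How many members were called lower depended on the scaling of the arrays. Over all probe sets the MEL arrays had deposited medians of 5.68 and 5.67 and the ES-EP arrays of 5.81 and 5.84, and centring each array on its median moved the median of all differences from -0.15 to -0.0005. Relative to that centre, the members' median was -0.05, with 11 called higher and 9 lower, while 20.4% of all probe sets were called higher and 18.5% lower, so the members' shares were near those of all probe sets. Quantile normalization gave 11 higher and 14 lower, beside 18.3% and 20.2% of all, and cyclic loess 11 higher and 13 lower, beside 19.7% and 18.1%. The lower calls numbered 25 and 24 with the filters on low signal at the median and at the 25th percentile, 27 over probe sets with at least 1 symbol and 28 with a trend in the variance, beside 34.5%, 34.9%, 42% and 30.8% of all in those fits. With 1 array left out, the lower calls were 7 without MEL A, 10 without MEL B, 9 without ES-EP A and 9 without ES-EP B, and the higher calls were 7, 6, 8 and 9. Of all probe sets, 16.1% to 20.9% were then called lower and 9.63% to 11.5% higher. No member was called in opposite directions by any of 14 alternatives. In every alternative in which they were tested, 6 members stayed called higher (H1f6, H2ac15, H2bc18, H2bc21, H2bc4 and H3c15) and 6 stayed called lower (H1f2, H2ac4, H2bc3, H2bc9, H3c4 and the probe set of H2bc6 and H1f4).

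**Figure D1:**
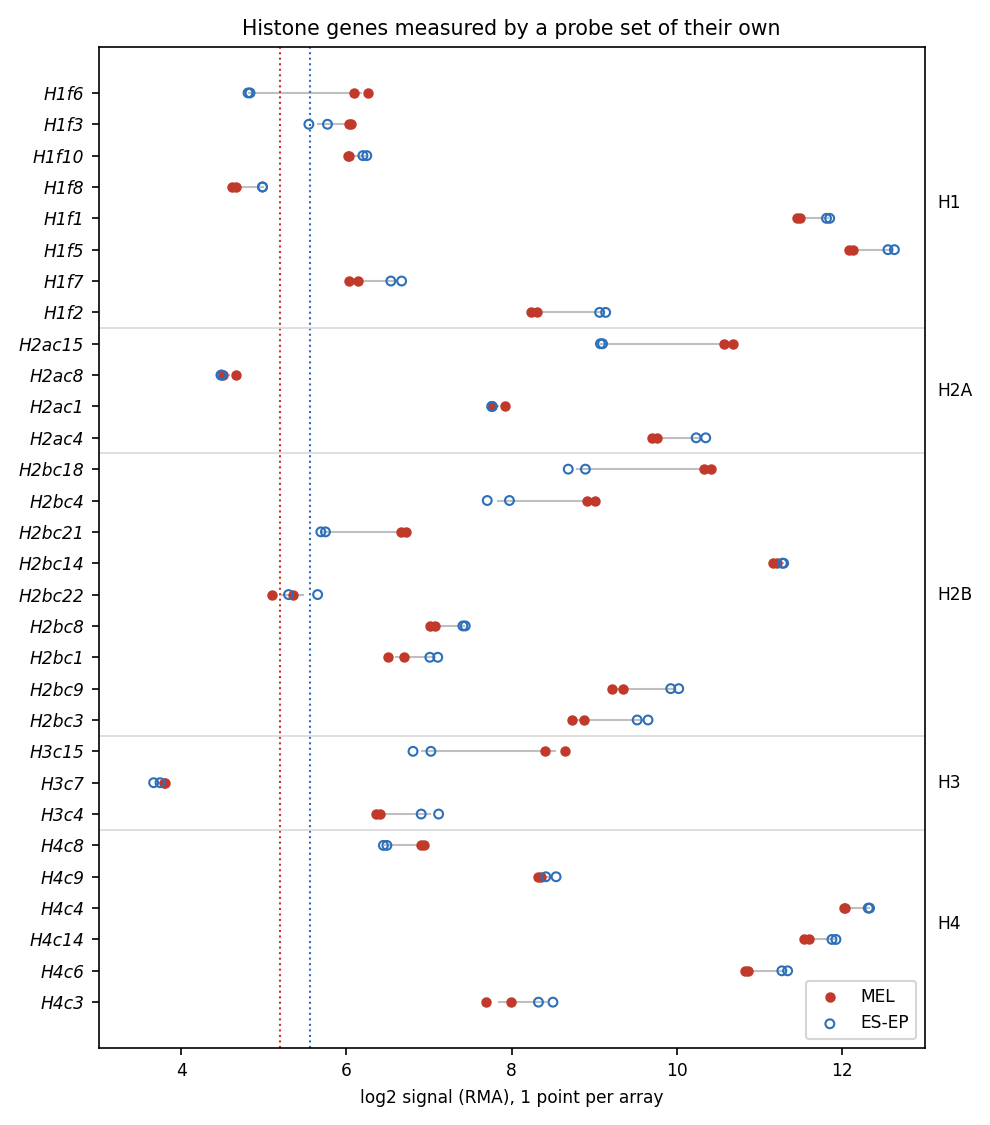
Log2 signal (x axis) of the 30 histone genes with a probe set of their own (y axis, ordered within each type by difference), 1 point per array, filled red for MEL and open blue for ES-EP, with grey lines joining group means. Dotted lines mark the level below which 95% of olfactory receptor probe sets lie, 5.19 in MEL (red) and 5.56 in ES-EP (blue). H2ac15, H2bc18 and H3c15 show the widest gaps with MEL to the right, and H1f2 the widest with MEL to the left.

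The level of genes that such cells do not use was taken from 1023 olfactory receptor probe sets, whose 95th percentile was 5.19 in MEL and 5.56 in ES-EP. Group means of 3 members, H1f8, H2ac8 and H3c7, were at or below it in both groups, and those of H1f6 and H2bc22 only in ES-EP. These olfactory probe sets had a median difference of -0.20 themselves, and 328 of them were called lower in MEL and 20 higher.

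Of the 8 H1 genes, 2 were called higher in MEL (25%, beside 14.4% of all probe sets) and 5 lower (62.5%, beside 30.7%), and H1f10 was not called. H1f6, the testis-specific linker histone, had signals of 6.09 and 6.26 in MEL against 4.81 and 4.83 in ES-EP. The MEL arrays lay above the level of unexpressed genes, and since the ES-EP arrays lay below it, MEL was at least 1.53-fold higher when set against that level (measured difference 1.36 ± 0.09 SE, adjusted p = 0.000736). H1f3, a somatic linker histone, was at 6.06 and 6.03 in MEL against 5.55 and 5.77 in ES-EP. The first of these ES-EP values lay below the unexpressed level of 5.56. The difference of H1f3 was 0.39 ± 0.10 (adjusted p = 0.0352), and it lost its call without MEL A (adjusted p = 0.127), MEL B (0.118) or ES-EP A (0.101).

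The other somatic H1 genes were lower in MEL. H1f2 had the most negative difference of all members, with 8.24 and 8.31 in MEL against 9.14 and 9.07 in ES-EP. Both MEL arrays were below both ES-EP arrays, a difference of -0.83 ± 0.08 (adjusted p = 0.00201). H1f5 was at 12.08 and 12.14 in MEL against 12.63 and 12.56 in ES-EP, with a difference of -0.49 ± 0.08 (adjusted p = 0.00873, and 0.0513 without MEL A). H1f1 was at 11.45 and 11.49 in MEL against 11.85 and 11.81 in ES-EP, a difference of -0.36 ± 0.07 (adjusted p = 0.0173). The H1f1 groups did not overlap, but its call was lost without any 1 of the arrays, at adjusted p of 0.0838 (MEL A), 0.0714 (MEL B), 0.0678 (ES-EP A) and 0.0563 (ES-EP B), and under median centring. The fifth somatic gene of the cluster, H1f4, was read only together with H2bc6. That probe set was at 6.63 and 6.64 in MEL against 7.46 and 7.43 in ES-EP, with a difference of -0.81 ± 0.07 (adjusted p = 0.00171).

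The remaining linker histones lie outside the clusters, and most are known from germ cells. H1f7, the spermatid linker histone, was at 6.14 and 6.03 in MEL against 6.54 and 6.67 in ES-EP, a difference of -0.52 ± 0.09 (adjusted p = 0.0109, and 0.0616 without MEL B). H1f8, the oocyte linker histone, was at 4.62 and 4.66 in MEL and 4.98 on both ES-EP arrays. Its difference of -0.34 ± 0.07 (adjusted p = 0.0195) lay within the unexpressed level, and its call was lost under quantile normalization, median centring and cyclic loess and without each array (adjusted p from 0.0682 without ES-EP A to 0.092 without MEL A). H1f10, a replication-independent H1 also called H1X, had a difference of -0.19 ± 0.07 (adjusted p = 0.0904). The number of H1 genes called lower fell from 5 to 2 without MEL A or MEL B and to 3 without ES-EP A or ES-EP B. Without the 3 genes from outside the clusters, the family held 53 members, of which 9 were called higher and 19 lower, with a median of -0.20.

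Of the H2A genes, H2ac15 was higher in MEL and H2ac4 lower. H2ac15 encodes a core histone of the chromosome 13 cluster, and it was at 10.57 and 10.68 in MEL against 9.10 and 9.08 in ES-EP. This 2.90-fold difference (1.54 ± 0.08, adjusted p = 0.000321) had the smallest adjusted p of all members. H2ac4 was at 9.69 and 9.76 in MEL against 10.23 and 10.35 in ES-EP, a difference of -0.56 ± 0.08 (adjusted p = 0.00698). H2ac8 had a group mean at the unexpressed level in both groups and differed by 0.10 (adjusted p = 0.41). H2ac1, the testis H2A, was at 7.77 and 7.92 in MEL and 7.76 on both ES-EP arrays, with a difference of 0.08 ± 0.09 (adjusted p = 0.489). Most H2A genes had no probe set of their own. They were read by 2 probe sets that also named H3c4 and the variant H2ax, and in these the differences were 0.11 ± 0.08 and 0.00 ± 0.07 (adjusted p = 0.28 and 0.975), the first of them called higher only under median centring (adjusted p = 0.043).

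Of 16 H2B members 3 were called higher in MEL (18.8%) and 5 lower (31.2%), shares near the 14.4% and 30.7% of all probe sets. H2bc18, of the chromosome 3 cluster, was at 10.33 and 10.41 in MEL against 8.89 and 8.69 in ES-EP, and the groups were 2.99-fold apart (1.58 ± 0.10, adjusted p = 0.00063). H2bc4, of chromosome 13, was at 8.92 and 9.01 in MEL against 7.97 and 7.70 in ES-EP, a 2.18-fold difference (1.12 ± 0.12, adjusted p = 0.0026). H2bc21, which encodes the H2B variant H2BE known from olfactory neurons, was at 6.66 and 6.72 in MEL against 5.69 and 5.75 in ES-EP, a 1.96-fold difference (0.97 ± 0.08, adjusted p = 0.00112). Its ES-EP arrays lay close above the unexpressed level of 5.56. In all 3 genes both MEL arrays were above both ES-EP arrays, by more than the cultures of either group differed.

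Other H2B genes were lower in MEL. H2bc3 was at 8.74 and 8.87 in MEL against 9.52 and 9.65 in ES-EP, with a difference of -0.78 ± 0.09 (adjusted p = 0.00395). H2bc9 was at 9.22 and 9.35 in MEL against 10.02 and 9.93 in ES-EP, with a difference of -0.69 ± 0.09 (adjusted p = 0.00467). These encode core histones of the chromosome 13 cluster, as do the next. H2bc1, the testis H2B, was at 6.50 and 6.69 in MEL against 7.11 and 7.01 in ES-EP (-0.46 ± 0.10, adjusted p = 0.02), and H2bc8 was at 7.01 and 7.07 in MEL against 7.41 and 7.44 in ES-EP (-0.38 ± 0.07, adjusted p = 0.015). The call of H2bc1 was lost without MEL A (0.0829), ES-EP A (0.0828) or ES-EP B (0.0566), and that of H2bc8 without each array (0.0528 without ES-EP A to 0.0771 without MEL A), and both were lost under median centring. H2bc14, at 11.21 and 11.16 in MEL against 11.29 and 11.28 in ES-EP, differed by -0.10 (adjusted p = 0.316). In H2bc22 the groups overlapped, with 5.09 and 5.35 in MEL against 5.30 and 5.65 in ES-EP (-0.25, adjusted p = 0.24).

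The 7 H2B probe sets with several symbols gave nearly the same small difference, from -0.26 to -0.20, with adjusted p from 0.0407 to 0.0875 and 1 called lower. Each carried 14 or 15 symbols, among them H2bc3, H2bc4 and H2bc9, so their symbols took in genes called in either direction. These probe sets are thus not separate readings, and a pair of them had identical values on every array. Their group means lay between 11.94 and 12.46 in MEL and between 12.15 and 12.70 in ES-EP, and both MEL arrays were below both ES-EP arrays in all 7, as in 51.5% of all probe sets. The number of H2B members called lower was 2 without MEL A, ES-EP A or ES-EP B, 3 without MEL B, 2 under median centring and 11 with a trend in the variance.

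Of 13 H3 members 1 was called higher and 1 lower (7.69% each, beside 14.4% and 30.7% of all probe sets). H3c15, a gene of the chromosome 3 cluster that encodes H3.2, had the largest difference of all members. It was at 8.41 and 8.65 in MEL against 7.02 and 6.81 in ES-EP, and MEL was 3.06-fold higher (1.61 ± 0.13, adjusted p = 0.00114). H3c4 went the other way, at 6.35 and 6.40 in MEL against 7.12 and 6.91 in ES-EP (-0.63 ± 0.10, adjusted p = 0.00833). The third H3 gene with a probe set of its own, H3c7, was at the level of unexpressed genes on all arrays and differed by 0.09 (adjusted p = 0.378). Like H2ac8, it was called higher under quantile normalization and cyclic loess.

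The 10 probe sets shared by 12 H3 genes, H3c4 and H3c15 included, differed by -0.05 to 0.11 between the groups (SE 0.0761 to 0.0802), and 0 of 10 were called by limma, with adjusted p from 0.315 to 0.953. Their values lay from 13.26 to 13.63 over all 4 arrays, and the highest value of any probe set on an array was 14.44. They were thus among the brightest features, as no more than 70 of all probe sets (0.197%) had a mean above their lowest group mean, and whether differences were compressed there was not tested. In 3 of the 10 the MEL and ES-EP arrays did not overlap, beside 75.9% of all probe sets. The brightest of them was at 13.62 and 13.56 in MEL against 13.48 and 13.56 in ES-EP, and the one nearest to 0 was at 13.47 and 13.43 in MEL against 13.41 and 13.50 in ES-EP. At an unadjusted p under 0.05, 0 of the 10 would be counted, and under median centring 1 was called higher (adjusted p = 0.0495).

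**Figure D2:**
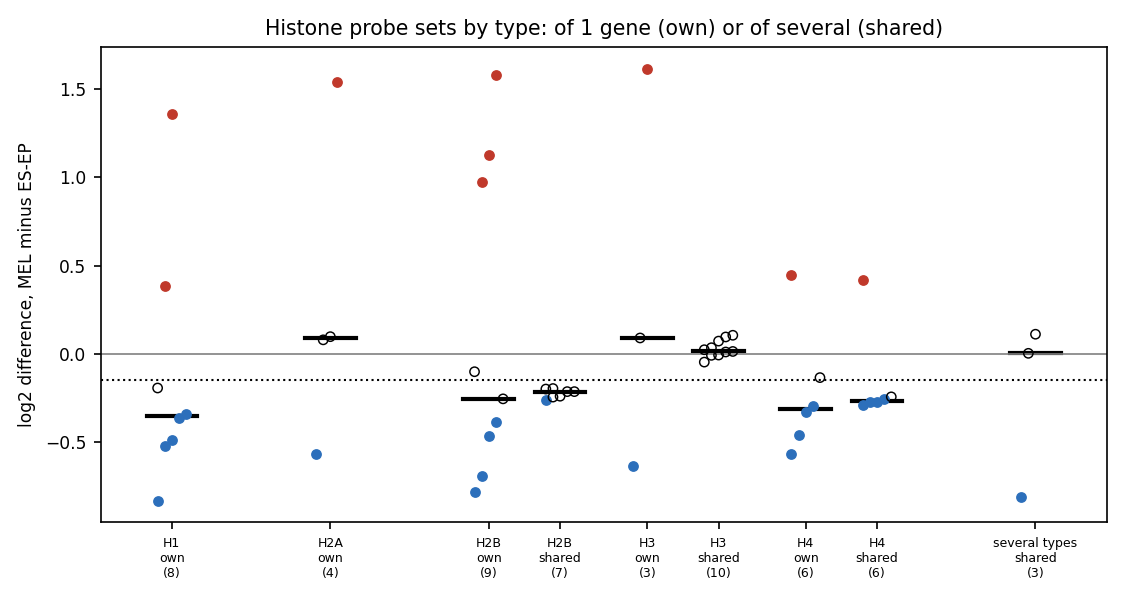
Log2 difference, MEL minus ES-EP (y axis), of the 56 histone probe sets by type (x axis), with the number of probe sets in parentheses, own for those with 1 symbol and shared for those with several. Red points were called higher in MEL, blue points lower and open points not called. The black bars are medians, and the dotted line is the median of all probe sets (-0.15). The shared H3 probe sets lie around 0, the shared H2B probe sets from -0.26 to -0.20, and the widest differences are in genes with a probe set of their own.

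Of 12 H4 members 8 were called lower in MEL (66.7%, beside 30.7% of all probe sets) and 2 higher (16.7%, beside 14.4%), with a median of -0.27. The 8 included 4 probe sets shared by the same 11 H4 genes, H4c3, H4c4 and H4c6 among them. These members are thus not separate readings, and a pair of the shared probe sets had identical values on every array. H4c3 was at 7.69 and 8.00 in MEL against 8.50 and 8.32 in ES-EP, a difference of -0.57 ± 0.13 (adjusted p = 0.0256). H4c6 was at 10.83 and 10.87 in MEL against 11.34 and 11.27 in ES-EP, a difference of -0.46 ± 0.08 (adjusted p = 0.00961, and 0.0548 without MEL A). H4c14, the gene of the chromosome 3 cluster, was at 11.55 and 11.60 in MEL against 11.88 and 11.93 in ES-EP (-0.33 ± 0.08, adjusted p = 0.0242), and H4c4 was at 12.04 and 12.02 in MEL against 12.32 and 12.33 in ES-EP (-0.29 ± 0.07, adjusted p = 0.0287). All of these genes encode the same H4 protein.

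H4c8 was higher in MEL, at 6.90 and 6.93 against 6.49 and 6.45 in ES-EP (0.45 ± 0.07, adjusted p = 0.00946, and 0.0571 without MEL B). So was the probe set of H4c17 and H4c11, at 7.40 and 7.38 against 6.98 and 6.96 (0.42 ± 0.07, adjusted p = 0.0109, and 0.0584 without MEL A or 0.0572 without MEL B). H4c9 was not called (-0.13, adjusted p = 0.244). The 5 probe sets shared by 11 H4 genes differed by -0.29 to -0.24, and 4 of them were called lower. The lower calls in H4 numbered 0 without MEL A, 2 without MEL B, 1 without ES-EP A, 1 without ES-EP B, 1 under median centring and 3 with cultures A and B as blocks. H4c3 lost its call without MEL A (0.0863), ES-EP A (0.104) or ES-EP B (0.0586). H4c14 and H4c4 lost theirs without each array, with adjusted p of 0.0667 (ES-EP A) to 0.109 (MEL A) and of 0.0835 (ES-EP A) to 0.118 (MEL B).

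By position, the genes that were higher in MEL did not form a single block. On chromosome 3, 3 of the 4 genes with a probe set of their own were called higher (75%) and 1 lower (25%). The higher ones were H2bc18, H2bc21 and H3c15, and the lower one was H4c14. On chromosome 13, 5 of 23 were called higher (21.7%) and 12 lower (52.2%), with a median of -0.29. Over all probe sets, 14.4% were called higher and 30.7% lower, and the median was -0.15. Several of these lower calls, that of H4c14 included, were lost with an array left out. H2bc4 and H1f6, both more than 2-fold higher on the deposited scale, are neighbors in gene order, and the next 2 genes, H4c3 and H1f2, were both lower. H2ac15 lay far from them, with H1f5 (lower) the nearest gene called beside it. Many H2A and H2B genes sit head to head and share the stretch between their starts. Among genes with a promoter entry 9 such pairs were found, and both genes had their own probe set in 2. Genes without an entry, such as H2bc4 and H2bc21, had no strand here and could not be paired. In these 2 pairs the differences were 0.10 for H2ac8 beside -0.38 for H2bc8, and 0.08 for H2ac1 beside -0.46 for H2bc1. H2ac8 was at the unexpressed level in both groups. The calls of H2bc8 and H2bc1 were lost under median centring and with arrays left out, as given above.

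**Figure D3:**
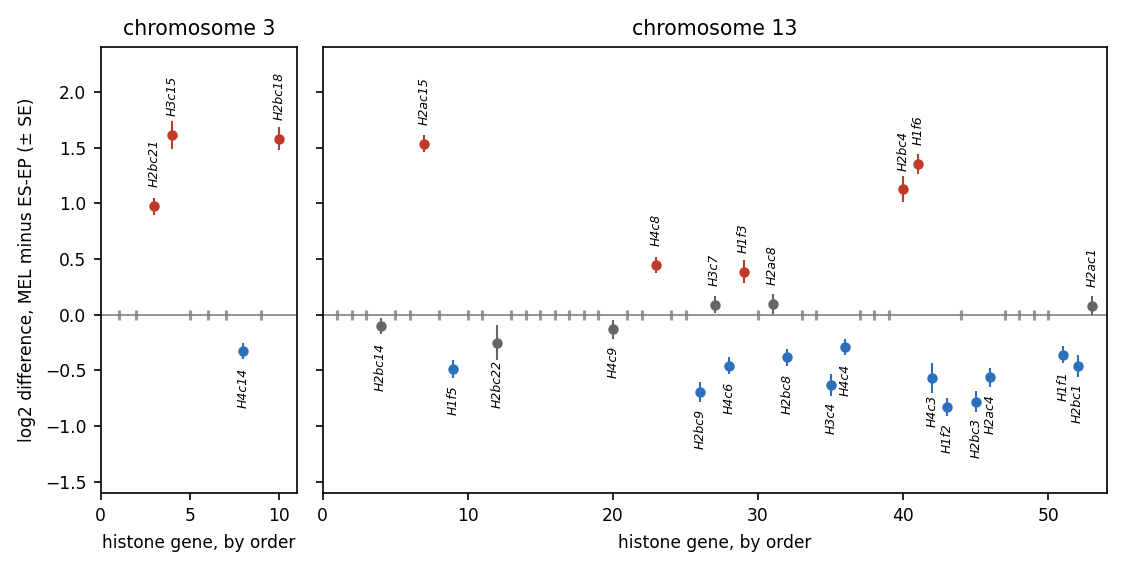
Log2 difference, MEL minus ES-EP, with its SE (y axis) of histone genes with a probe set of their own, placed by their order among the histone genes of chromosome 3 (left) and chromosome 13 (right). Red points were called higher in MEL, blue lower and grey not called, and grey ticks at 0 mark genes without a probe set of their own. The neighbors H2bc4 and H1f6 are higher in MEL and are followed by H4c3 and H1f2, which are lower.

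Genes that act on histone transcripts and proteins were set beside the family. Npat, the cyclin E-CDK2 substrate that activates histone transcription, was at 8.65 on both MEL arrays and at 8.84 and 8.89 in ES-EP (-0.21 ± 0.07, adjusted p = 0.0708). Of 7 measured genes for histone transcription, 1 was called higher (14.3%) and 2 lower (28.6%), shares close to the 14.4% and 30.7% of all probe sets. Ccne1, a cyclin E gene, was at 9.97 and 9.96 in MEL against 9.29 and 9.37 in ES-EP (0.63 ± 0.08, adjusted p = 0.00403), while Cdk2 (-0.41) and Casp8ap2 (-0.39), which acts in histone transcription and processing, were lower. Without MEL A or MEL B neither of these 2 was called, and 1 was called without ES-EP A or ES-EP B.

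Slbp differed by 0.05 ± 0.07 (adjusted p = 0.642), at 10.93 and 10.91 in MEL against 10.86 and 10.90 in ES-EP. These values are from the brighter of 2 probe sets with only its symbol, and whether that probe set reads the Slbp transcript was not tested. Of the 14 measured genes for processing and turnover of histone mRNA, 2 were called higher (14.3%) and 3 lower (21.4%), also near the shares of all probe sets. Cstf2, a cleavage factor subunit, was at 11.06 and 10.98 in MEL against 9.59 and 9.70 in ES-EP, a 2.59-fold difference (1.37 ± 0.08, adjusted p = 0.000537). Cpsf3, the endonuclease that cuts histone pre-mRNA, was at 9.30 and 9.24 in MEL against 10.40 and 10.37 in ES-EP and was lower (-1.11 ± 0.07, adjusted p = 0.000723). Zfp473 (-0.40) and Cpsf2 (-0.39), also of the processing machinery, were lower too, but the lower calls of the list were 1 without MEL A, MEL B or ES-EP B and 4 without ES-EP A. The higher calls were 1 without each array.

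Of 20 measured histone chaperones and deposition factors, 2 were called higher (10%) and 6 lower (30%), beside 14.4% and 30.7% of all probe sets, and 3 were called lower without MEL B. Nasp, which holds the soluble pool of H3 and H4, was at 8.68 and 8.77 in MEL against 9.79 and 9.81 in ES-EP (-1.08 ± 0.08, adjusted p = 0.000908). The H3-H4 chaperone Asf1b (-0.66) and the importin Ipo4 (-0.55), which carries histones into the nucleus, were lower as well, and Anp32e, a chaperone that removes H2A.Z, was higher (0.76, adjusted p = 0.00344). Of 11 measured variants made outside S phase, H1f7, H1f8 and H1f10 among them, 2 were called higher (18.2%) and 5 lower (45.5%). The group means of 3 of the 11 did not exceed the olfactory level in either group, and 2 of these, H1f8 and H3f3a, were among the 5 called lower. H3f3a had 1 probe set with only its symbol, and whether that probe set reads the H3f3a transcript was not tested. Macroh2a1 was at 11.21 and 11.16 in MEL against 9.75 and 9.81 in ES-EP, 2.65-fold higher (1.41 ± 0.08, adjusted p = 0.000369), and the centromeric H3 gene Cenpa was 1.86-fold higher (0.89, adjusted p = 0.00141). H2aj, an H2A variant gene, was 2.28-fold lower (-1.19, adjusted p = 0.000822). The variants called lower were 1 without MEL B and 2 without any other array.

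S phase genes were lower in MEL in 14 of 22 measured (63.6%, beside 30.7% of all probe sets), with 0 higher (14.4% of all), and their median was -0.47. Cdt1, which licenses replication origins, was at 9.72 and 9.55 in MEL against 10.92 and 10.98 in ES-EP (-1.32 ± 0.09, adjusted p = 0.000822). Rrm2, a ribonucleotide reductase subunit, was at 10.65 and 10.68 in MEL and 11.62 on both ES-EP arrays (-0.96 ± 0.07, adjusted p = 0.00103), and Tk1 (-0.97) and Gins1 (-0.93) were also lower. Lower calls were 11 or 12 without each array, and 1 gene, Mcm2 (named after its value was seen), was called higher under each rescaling. The histone members had a median of -0.20, beside -0.15 over all probe sets. Whether the S phase genes have a part in the members' differences was not tested.

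**Figure D4:**
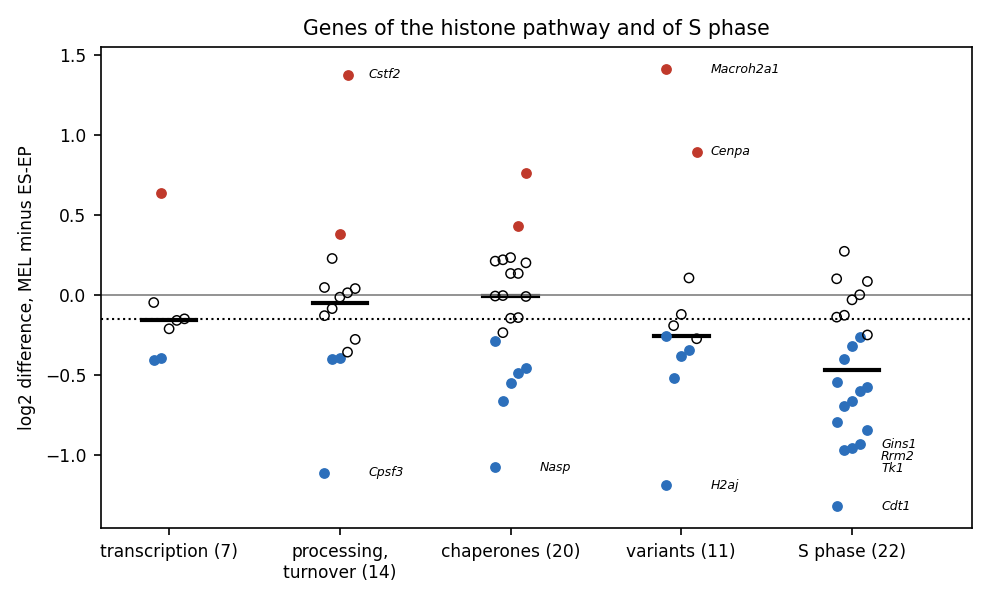
Log2 difference, MEL minus ES-EP (y axis), of measured genes in 5 lists (x axis, number of genes in parentheses) for histone transcription, histone mRNA processing and turnover, histone chaperones, variants made outside S phase, and S phase. Red points were called higher in MEL, blue lower and open points not called. The black bars are medians, and the dotted line is the median of all probe sets (-0.15). The S phase list has its median at -0.47 and 14 of 22 genes called lower.

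The cells were checked by markers. Of 9 measured erythroid genes 1 was called higher in MEL (11.1%, beside 14.4% of all probe sets) and 7 lower (77.8%, beside 30.7%). Their group means were 9.07 to 12.73 in ES-EP and 5.87 to 12.36 in MEL. Slc4a1, the erythrocyte anion exchanger, differed by -5.47 (adjusted p = 2.91e-05) and Alas2, the erythroid heme enzyme, by -3.12 (adjusted p = 4.33e-05), while Gata1 was higher in MEL (1.14 ± 0.09, adjusted p = 0.000973). The line carries a Gata-1 fusion, and whether the probe set reads its transcript was not tested. Of 6 mast cell genes 5 were called lower in MEL (83.3%, beside 30.7% of all probe sets), and 3 did not exceed the olfactory level in either group. Ms4a2, an IgE receptor subunit, had a mean of 11.05 in ES-EP and was below the olfactory level in MEL, so that it was at least 58.0-fold lower there (adjusted p = 2.87e-05). Kit, also a receptor of early erythroid cells, differed by -5.74 (adjusted p = 2.87e-05). Of 5 stem cell genes 2 (40%), and of 5 macrophage and granulocyte genes 1 (20%), were called lower, beside 30.7% of all probe sets. In each of these lists 4 genes did not exceed the olfactory level in either group. The part of these markers in the histone differences was not tested.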

How the data were processed

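RNA of 4 cultures was hybridized to Affymetrix Mouse Gene 1.0 ST arrays. The authors deposited log2 RMA values made in GeneSpring GX, per the labels, 1 column per array; RMA corrects background, normalizes and summarizes probes, and unequal array medians remained. The version and the labeling chemistry are not given in the sources used here, and the build listed with the submitters' processing notes is mm9. Every array held 35557 probe sets, and 0 columns belonged to samples outside the series. The number of arrays limits the precision. The array's gene table gave 1 symbol to 21789 probe sets, several to 1621 and none to 12147.

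MEL minus ES-EP was tested two-sided over all probe sets with limma 3.58.1 in R 4.3.3, using lmFit and default eBayes without a block. There were 2 residual degrees of freedom and 2.798 prior ones, and p-values were adjusted by Benjamini-Hochberg at 0.05. The step was tested on simulated data. ± is the SE of a difference. A 2-fold call also needed a difference of at least 1 on the log2 scale.

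The members, the gene lists and the tests were chosen with earlier results of these data known. The genes named were all H1 genes, up to 4 called probe sets with the largest differences per direction in each other type, the brightest and the one nearest to 0. Npat, Slbp and up to 4 called genes per list were named as well, with Gata1 and Kit of the markers. Where a list gene had several probe sets with only its symbol, the brightest was used, as for Slbp and Tk1 (2 each). Slc4a1, Alas2, Ms4a2 and H3f3a were added after their values were seen. H2ac8, H2bc22 and H3c7 were added after their values were seen, to account for all members with a gene of their own. Some genes of the lists, Pou2f1, Hjurp, Ssrp1 and H3f3b among them, were not analysed here.

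Promoters and gene order came from RefSeq (GRCm38.p6), with an entry for 61 of 66 genes and for 26 of the 30 with their own probe set. H2bc4 and H2bc21 had none. Motif letters were searched on both strands of 300 bases (250 before the start). Alternatives were 3 rescalings, 2 filters on low values, 2 sets of probe sets, cultures A and B as blocks, eBayes with trend and robust, a test against a 1.2-fold difference, and each array left out. Leaving out the genes outside the clusters, and counting identical probe sets as 1, were chosen after seeing the data. Promoters were searched in Python 3.11.15 with pandas 2.3.3, and matplotlib 3.10.9 drew the figures.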

Additional observations from a re-analysis of the deposited data

How the results depend on the processing

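Of 760 values of named genes under the alternatives, 659 kept their side of the threshold, 92 fell short of it and 9 newly passed it. Where either fit made a call, 0 values changed sign. Small differences that neither fit called could change sign, as for H2bc14 (-0.10, and 0.048 under median centring). The members' median was -0.12 under quantile normalization, -0.049 under median centring, -0.085 under cyclic loess and -0.27 over probe sets with exactly 1 symbol, and ran from -0.22 to -0.18 with each array left out. Members called lower were 9 under median centring, 13 under cyclic loess, 6 in the test against a 1.2-fold difference, and 7 to 10 with an array left out, where fewer samples enter the fit, and 24 to 28 with a filter on low signal, over probe sets with at least 1 symbol or with a trend in the variance. Members at least 2-fold higher numbered 4 to 6 over all alternatives, and at least 2-fold lower 0 in each.

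By type under median centring, 3 of H1, 2 of H2B and 1 of H4 were called lower, with 2 of H3 and 1 of several types called higher. Quantile normalization gave 2 higher of H2A, 2 higher of H3 and 3 lower of H4, and cyclic loess gave 2 higher of H2A, 2 higher of H3, 3 lower of H2B and 3 lower of H4. The filter at the median signal gave 1 higher of H1 and 9 lower of H2B. A fit on probe sets with at least 1 symbol gave 10 lower of H2B, and a trend in the variance 11. Probe sets with exactly 1 symbol left 1 higher and 4 lower of H4 and 0 lower of several types, since shared probe sets are not in that fit. The 1.2-fold test left 1 higher and 1 lower of H1, 2 lower of H2B, and 0 higher and 0 lower of H4. With each array left out, H1 had 1 to 2 higher and 2 to 3 lower, H2B 2 to 3 lower, and H4 0 to 2 higher and 0 to 2 lower.

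In the lists, median centring gave 0 lower for transcription, 1 lower for processing, 6 higher for chaperones, 2 lower for variants and 1 higher for S phase. Quantile normalization and cyclic loess each gave 2 lower for variants and 1 higher for S phase. The filter at the median gave 3 lower for variants. That filter, the filter at the 25th percentile, both fits on named probe sets and the trend fit each gave 1 higher for S phase, and both fits on named probe sets gave 5 lower for processing. The 1.2-fold test gave 0 lower for transcription, 1 higher and 1 lower for processing, 1 higher and 2 lower for chaperones, and 1 lower for variants. With each array left out, lower calls were 0 to 1 for transcription, 1 to 4 for processing, 3 to 5 for chaperones and 1 to 2 for variants, and higher calls were 1 for processing and 1 to 2 for chaperones. The cause of these changes was not tested where none is given.

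Cultures A and B share only a letter: deviations from the group means of arrays with the same letter correlated at r = -0.00965 over probe sets. With the letter as a replicate block, 9 members were called higher and 15 lower, 3 of the latter H4. Counting each of 2 pairs of probe sets with identical values as 1 left 54 members, 9 higher and 20 lower, with a median of -0.19.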
